A study of Mus musculus with 6 samples.

Results

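The 41 genes described here encode enzymes, subunits and accessory proteins that supply, build, trim and extend the asparagine-linked sugar chain (N-glycan) of secreted and membrane proteins. They were taken by gene name from a list drawn up with earlier results of these data known, covering the supply of sugars, the dolichol pathway, and processing in the endoplasmic reticulum (ER) and the Golgi. All 41 were found among the 25718 genes of the expression table. The table holds RNA levels of primary hepatocytes, the main cell type of the liver, in 3 libraries of WT and 3 of S100a16KO+/- mice, all fed alcohol. In the labels the mutant group is named S100A16 knockdown, while the study's methods describe heterozygous knockout mice, in which exons 2 to 3 of S100a16 were floxed and deleted by EIIa-Cre, on a background of over 98% C57BL/6. Homozygous animals were not viable per those methods, so that 1 intact allele remained in the mice compared. All animals were males of 8 to 10 weeks, and every mouse, WT included, received control diet for 5 days, a 5% ethanol diet for 10 days and, 9 h before collection, 5 g/kg ethanol by gavage. No group without alcohol was sequenced in the libraries analysed here, so every difference below is one of genotype under alcohol.

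N-glycans are assembled on the membrane lipid dolichol phosphate. Sugars are added step by step, at the cytosolic face of the ER from UDP-N-acetylglucosamine (UDP-GlcNAc) and GDP-mannose, and then at the lumenal face from dolichol-linked mannose and glucose, before oligosaccharyltransferase moves the finished chain onto a new protein. ER glucosidases and a mannosidase then trim the chain while the protein folds, UGGT enzymes put a glucose back on proteins that are not yet folded, and Golgi enzymes remodel the chain of proteins that leave the ER. Hepatocytes secrete most plasma glycoproteins and use this pathway heavily.

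The estimated counts of a library added up to between 67658095 and 71807834, with about 4 counts for each sequenced fragment. Levels are given in CPM (counts scaled to a common library size by TMM) for comparison between libraries, and in FPKM (per transcript length) for comparison between genes. Genotypes were compared with edgeR's quasi-likelihood test over 15957 genes that passed its filter on low counts, two-sided, and a gene is called higher or lower in S100a16KO+/- hepatocytes at a Benjamini-Hochberg adjusted p under 0.05. S100a16 itself was at 14.7, 15.0 and 16.2 CPM in WT and at 6.25, 6.07 and 5.08 CPM in S100a16KO+/- libraries. WT replicate 1 and S100a16KO+/- replicate 2 stood apart from the other libraries on the second principal component (12.8% of the variance), so counts are also given without them. Mitochondrial transcripts took 21.1% and 20.1% of the counts of these libraries and 17.0% to 18.6% of the others. Hepatocyte markers summed to 118900 to 129400 CPM in WT and 114000 to 125100 CPM in S100a16KO+/- libraries, with 0 of 8 called higher and 3 called lower. Markers of sinusoidal endothelial cells (184.4 to 198.2 against 264.7 to 272.8 CPM, 6 of 7 called higher and 1 lower) and stellate cells (36.4 to 39.6 against 65.5 to 72.2 CPM, 3 of 7 called higher) differed too. Red cell markers had 214.8 to 252.2 CPM against 23.4 to 26.3 CPM (5 of 5 called lower), macrophage markers 104.6 to 123.2 against 118.7 to 133.6 CPM (3 of 8 called higher), and white cell markers 7.31 to 10.5 against 10.1 to 11.6 CPM (0 of 5 called). Cholangiocyte markers summed to 4.59 to 6.43 against 4.89 to 5.47 CPM, with 1 of 4 tested called lower. The part of these cells in the differences below was not tested, and in bulk samples fewer cells of a type and less RNA per cell cannot be told apart.

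All 41 genes passed the filter on low counts. Of these, 15 were called higher and 5 lower in S100a16KO+/- hepatocytes, and 21 were not called. Over all genes tested, 11.6% were called higher and 11.2% lower, shares that also stand beside the counts of each step below. The 3 libraries of the genotypes did not overlap for 24 of the 41 genes (17 higher, 7 lower), against 37.9% of all genes tested. The median log2 fold change of the 41 was 0.10, against 0.01 over all genes tested, and single genes ranged from -0.65 (Pmm1, not called) to 1.64 (Gmppb). With the rule of an unadjusted p under 0.05 and a fold of at least 2, 5 genes were higher (Gfpt1, Gmppa, Gmppb, Alg12 and Uggt2) and 0 lower, where 2.9% and 1.62% of all genes tested met it. Without WT replicate 1 and S100a16KO+/- replicate 2, 15 were called higher and 3 lower, and the median was 0.08. Over the 16191 genes tested in that setting, 1664 were called higher and 1748 lower, with a median of 0.005. The log2 fold changes of the 15 higher calls ranged from 0.18 to 1.64 and those of the 5 lower calls from -0.36 to -0.22. Of the lower calls, 0 of the 5 held in every alternative processing tried, and 13 of the 15 higher calls held in every alternative that tested them. The share of all counts taken by the 41 genes was 0.140%, 0.152% and 0.149% in WT libraries and 0.176%, 0.161% and 0.173% in S100a16KO+/- libraries. It was lowest within each genotype in the library with the highest mitochondrial share, and the part of that share in the differences was not tested.

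**Figure D1:**
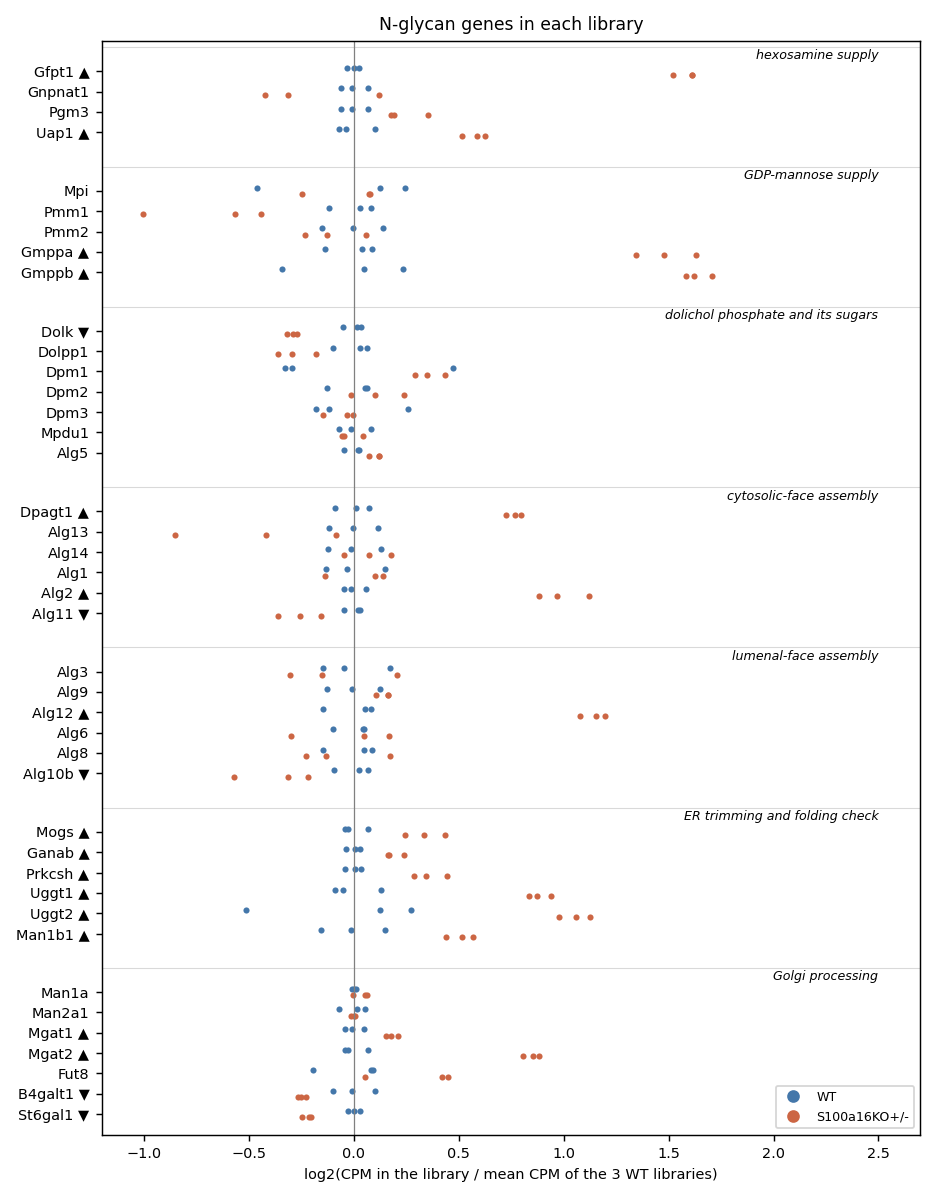
Level of each of the 41 genes in each of the 6 libraries, as log2 of its CPM over the mean of the WT libraries (x axis), with genes in pathway order from top to bottom 1 point for each library, and triangles beside the names of genes called higher or lower. The S100a16KO+/- points of Gfpt1, Gmppa and Gmppb lie farthest to the right of the WT points, while the genotypes of Man1a and of Man2a1 overlap.

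Hexosamine supply had 2 of 4 genes called higher, those of its entry and its last step. It makes UDP-GlcNAc, the donor of the first sugars of the chain and of its later branches. Its entry enzyme Gfpt1 (ENSMUSG00000029992, chromosome 6 from 87042846 to 87092197, plus strand, GRCm38) makes glucosamine 6-phosphate from fructose 6-phosphate. It had 12.3, 12.6 and 12.8 CPM in WT and 38.4, 38.4 and 36.0 CPM in S100a16KO+/- libraries. Every S100a16KO+/- library was far above every WT library, and Gfpt1 rose 2.99-fold (log2 fold change 1.58, standard error 0.07, adjusted p = 1.2e-09, edgeR). Uap1, which makes UDP-GlcNAc in the last step, had 17.4, 17.0 and 19.1 CPM in WT and 25.5, 27.4 and 26.7 CPM in S100a16KO+/- libraries. The genotypes did not overlap, and Uap1 rose by a log2 fold change of 0.58 (standard error 0.08). The enzymes between these ends were not called. Gnpnat1, which acetylates glucosamine 6-phosphate, had a log2 fold change of -0.19 (standard error 0.14) and overlapping genotypes. Without S100a16KO+/- replicate 1 it was -0.37 with an adjusted p of 0.00319 in edgeR. Pgm3, the mutase of the pathway, had 0.24 (standard error 0.12), with every S100a16KO+/- library (7.00 to 7.90 CPM) above every WT library (5.93 to 6.49 CPM). Within a library, the FPKM of Gfpt1 was 0.0943 to 0.105 times that of Gnpnat1 in WT and 0.278 to 0.405 times in S100a16KO+/- hepatocytes.

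In GDP-mannose supply, 2 of 5 genes were called higher, both of them subunits of the enzyme of the last step. Gmppb is the catalytic subunit of GDP-mannose pyrophosphorylase, which joins mannose 1-phosphate to GTP, and Gmppa is its regulatory subunit. Gmppb (ENSMUSG00000070284, chromosome 9 from 108049242 to 108052801, plus strand) had 4.55, 5.97 and 6.78 CPM in WT and 18.8, 17.3 and 17.7 CPM in S100a16KO+/- libraries. The lowest S100a16KO+/- library was well above the highest WT library, although the WT libraries differed among themselves. Gmppb rose 3.11-fold (log2 fold change 1.64, standard error 0.13, adjusted p = 4.17e-07, edgeR), the largest change of the 41 genes. Gmppa (ENSMUSG00000033021, chromosome 1 from 75435930 to 75443174, plus strand) had 11.3, 10.9 and 9.63 CPM in WT and 26.9, 32.7 and 29.5 CPM in S100a16KO+/- libraries. Its genotypes were likewise apart, with a rise of 2.81-fold (log2 fold change 1.49, standard error 0.10, adjusted p = 4.55e-08, edgeR). Mpi, which makes mannose 6-phosphate from fructose 6-phosphate, and the phosphomannomutase Pmm2 had log2 fold changes of -0.02 and -0.10, with overlapping genotypes. The other phosphomannomutase, Pmm1, had 1.77, 1.96 and 2.03 CPM in WT and 1.299, 1.42 and 0.958 CPM in S100a16KO+/- libraries. These groups did not overlap, but the log2 fold change of -0.65 (standard error 0.24) did not pass the test (adjusted p = 0.0704, edgeR), and Pmm1 had the lowest count of all members, 69. The FPKM ratio of Gmppb to Pmm2 was 0.273, 0.436 and 0.446 in WT libraries and 1.46, 1.10 and 1.28 in S100a16KO+/- libraries.

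Dolichol phosphate and its sugars showed no rise that passed the test in 7 genes. Dolk, the kinase that makes dolichol phosphate, had 12.2, 12.03 and 11.5 CPM in WT and 9.54, 9.74 and 9.86 CPM in S100a16KO+/- libraries. The genotypes did not overlap, and Dolk was called lower (log2 fold change -0.29, standard error 0.09, adjusted p = 0.036, edgeR). This call was lost with any library left out, the adjusted p then being 0.0541 to 0.0988. Dolpp1, which recycles dolichol pyrophosphate, had -0.28 (standard error 0.10, adjusted p = 0.0688, edgeR) and no overlap between genotypes. Dpm2 (0.11) and Dpm3 (-0.06) encode the accessory subunits of dolichol phosphate mannose synthase, Mpdu1 (-0.02) is needed for the use of dolichol-linked sugars, and Alg5 (0.10) makes dolichol phosphate glucose. Of these 4 genes, Alg5 alone had genotypes that did not overlap.

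Dpm1, the catalytic subunit of dolichol phosphate mannose synthase, had 39.9, 23.5 and 23.0 CPM in WT and 38.9, 36.7 and 35.3 CPM in S100a16KO+/- libraries. WT replicate 1 was above all other libraries and the other WT libraries were below them. The annotated gene Gm20716 lies over Dpm1 on the same strand and had counts of 0, 1615 and 1521 in WT and 0, 467 and 0 in S100a16KO+/- libraries. With the counts of both genes added, an alternative chosen after the data were seen, the level was 39.9, 46.5 and 45.2 CPM in WT and 38.9, 44.0 and 35.3 CPM in S100a16KO+/- libraries. The log2 fold change was 0.36 for Dpm1 alone (standard error 0.25, adjusted p = 0.415, edgeR) and -0.16 for the sum (standard error 0.08, adjusted p = 0.205, edgeR). With only WT replicate 1 left out, Dpm1 without Gm20716 reached 0.67 with an adjusted p of 4.12e-05 in edgeR. With all libraries kept, neither Dpm1 alone nor the sum passed the test. How the reads of the overlapping genes were divided was not tested.

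At the cytosolic face, Dpagt1 starts the chain by placing GlcNAc phosphate on dolichol phosphate. Dpagt1 (ENSMUSG00000032123, chromosome 9 from 44326019 to 44333900, plus strand) had 26.6, 23.7 and 25.5 CPM in WT and 41.8, 43.0 and 43.9 CPM in S100a16KO+/- libraries. All 3 S100a16KO+/- libraries were above all WT libraries, and Dpagt1 rose 1.70-fold (log2 fold change 0.76, standard error 0.07, adjusted p = 9.54e-07, edgeR). Alg2, which adds mannose to the growing chain after Alg1, had 10.8, 11.3 and 10.5 CPM in WT and 23.6, 20.02 and 21.2 CPM in S100a16KO+/- libraries. Its groups were widely apart, with a rise of 1.99-fold (log2 fold change 0.99, standard error 0.09). Alg11, the mannosyltransferase that completes the cytosolic chain, had 22.3, 21.3 and 22.4 CPM in WT and 19.7, 18.4 and 17.1 CPM in S100a16KO+/- libraries. It was called lower without overlap (log2 fold change -0.26, standard error 0.08, adjusted p = 0.0352, edgeR). That call remained without S100a16KO+/- replicate 1 (adjusted p = 0.0289, edgeR) and was lost without any other library (0.0541 to 0.14). Alg13 and Alg14, the subunits of the enzyme that adds the second GlcNAc, had log2 fold changes of -0.42 and 0.07, and Alg1, which adds the first mannose, had 0.04. All 3 had overlapping genotypes, and Alg13 was called lower without S100a16KO+/- replicate 3 only (-0.62, adjusted p = 0.0457, edgeR). The FPKM ratio of Alg2 to Alg11 was 0.694, 0.762 and 0.674 in WT and 1.72, 1.56 and 1.79 in S100a16KO+/- libraries, so that their order reversed between genotypes.

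At the lumenal face, 1 mannosyltransferase of 3 rose. Alg12 adds the mannose that lets Alg9 finish the last branch of the chain. Alg12 (ENSMUSG00000035845, chromosome 15 from 88805244 to 88819318, minus strand) had 5.14, 6.02 and 5.90 CPM in WT and 13.0, 12 and 12.6 CPM in S100a16KO+/- libraries. The groups did not overlap, and Alg12 rose 2.21-fold (log2 fold change 1.14, standard error 0.11, adjusted p = 3.26e-06, edgeR). Its neighbours in the pathway, Alg3 and Alg9, had log2 fold changes of -0.07 and 0.14 and overlapping genotypes. The FPKM ratio of Alg12 to Alg9 was 0.562 to 0.788 in WT and 1.33 to 1.39 in S100a16KO+/- libraries. Of the glucosyltransferases that finish the chain, Alg6 (-0.02) and Alg8 (-0.05) were not called, and Alg10b, which adds the terminal glucose, was called lower. Alg10b had 31.1, 34.7 and 33.7 CPM in WT and 26.7, 22.3 and 28.5 CPM in S100a16KO+/- libraries, without overlap (log2 fold change -0.36, standard error 0.09, adjusted p = 0.00813, edgeR).

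The promoter sequence of Alg12 is shown because it was the only one of the 36 members with a RefSeq promoter (GRCm38.p6) that held a full ER stress response element (ERSE, letters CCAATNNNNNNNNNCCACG on either strand). The sequence lies at chr15:88819319-88819568 on the minus strand and covers the 250 bases before the start, with the element in capitals.
Alg12: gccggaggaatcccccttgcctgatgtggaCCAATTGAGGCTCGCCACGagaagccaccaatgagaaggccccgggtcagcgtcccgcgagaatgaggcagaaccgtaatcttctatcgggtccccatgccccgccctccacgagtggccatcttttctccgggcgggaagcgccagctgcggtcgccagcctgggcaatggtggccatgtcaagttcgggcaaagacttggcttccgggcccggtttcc
The element lay at -220 to -202 from the start, and among 27025 genes with a promoter of this window (250 bases before and 50 after the start) 37 held it, or 0.137%. Alg12 starts 328 bases from Creld2, an ER gene that runs the other way. Creld2 had 7.09, 10.9 and 10.2 CPM in WT and 108, 100.1 and 110.1 CPM in S100a16KO+/- libraries (log2 fold change 3.50), so the printed window lies between a pair of genes that both rose. The element within it lies nearer to the start of Creld2 than to that of Alg12.

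For Gfpt1 the same window (chr6:87042596-87042845, plus strand) is shown, since its change was among the largest and it held no full element, only the separate ends of it, CCAAT and CCACG, in capitals on either strand.
Gfpt1: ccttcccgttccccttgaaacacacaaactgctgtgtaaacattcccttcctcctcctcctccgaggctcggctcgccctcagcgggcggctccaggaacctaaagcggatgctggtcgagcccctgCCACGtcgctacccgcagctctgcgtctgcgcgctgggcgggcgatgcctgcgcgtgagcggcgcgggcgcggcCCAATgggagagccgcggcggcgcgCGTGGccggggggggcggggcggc
The letters CCAAT occurred in 17 of the 36 promoters (47.2%, against 41.1% of all genes) and CCACG in 18 (50.0% against 35.5%). The ERSE-II letters ATTGGNCCACG (0.044% of all genes) and the UPRE core TGACGTGG (0.714%) occurred in 0 of the 36. Such matches describe letters in a window, not bound sites. Dpagt1, Alg2, Alg11, Gmppb and Gnpnat1 had no entry in the promoter table.

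Close neighbours on the other strand that start within 1000 bases of a member and run away from it were looked at after the data were seen. Besides Alg12, 5 called members had a tested neighbour of this kind. Alg2 starts 325 bases from Sec61b, a subunit of the ER protein channel (log2 fold change 0.43, adjusted p = 0.00287, edgeR). Mgat2 starts 144 bases from the ribosomal protein gene Rpl36al (0.20, adjusted p = 0.0443, edgeR). Alg11 starts 416 bases from the copper transporter gene Atp7b, and both were called lower (Atp7b -0.34, adjusted p = 0.00223, edgeR). Dolk starts 63 bases from the nuclear pore gene Nup188, which was not called (0.13), and Prkcsh 172 bases from Ccdc151, which was not called either (-0.59, adjusted p = 0.0598, edgeR). St6gal1, called lower, starts 744 bases from BC106179, which is on the other strand but does not run away from it. BC106179 was not called (-1.57, adjusted p = 0.129, edgeR).

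ER trimming and the folding check was the step in which 6 of 6 genes were called higher, all without overlap between genotypes. Of all genes tested, 11.6% were called higher, and 37.9% did not overlap in either direction. The log2 fold changes of the 6 genes ranged from 0.19 to 1.05, with a median of 0.43. Mogs, glucosidase I, removes the terminal glucose of the transferred chain, and had 36.9, 39.9 and 37.3 CPM in WT and 51.4, 45.1 and 47.9 CPM in S100a16KO+/- libraries (log2 fold change 0.34). Ganab and Prkcsh, the catalytic and the noncatalytic subunit of glucosidase II, were among the most abundant members. Ganab had 157, 162 and 165 CPM in WT and 191, 182 and 181 CPM in S100a16KO+/- libraries. The gap between the groups was small beside the level, and Ganab rose (log2 fold change 0.19, standard error 0.05, adjusted p = 0.0131, edgeR), a call lost without WT replicate 1 (adjusted p = 0.0525) or S100a16KO+/- replicate 1 (0.0784). Prkcsh had 100.4, 102 and 97.0 CPM in WT and 127, 136 and 122 CPM in S100a16KO+/- libraries (log2 fold change 0.36, standard error 0.06, adjusted p = 0.000299, edgeR).

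Uggt1, the sensor that adds glucose back to unfolded glycoproteins, had 48.6, 42.9 and 41.7 CPM in WT and 81.4, 85.2 and 79.1 CPM in S100a16KO+/- libraries. It rose 1.84-fold (log2 fold change 0.88, standard error 0.07, adjusted p = 2.61e-07, edgeR). Its paralog Uggt2 (chromosome 14 from 118985039 to 119099430, minus strand) was the member with the lowest FPKM, and had 1.02, 1.59 and 1.77 CPM in WT and 3.05, 3.19 and 2.87 CPM in S100a16KO+/- libraries. The libraries did not overlap, on 70 to 121 counts in WT and 205 to 211 in S100a16KO+/- libraries, and Uggt2 rose 2.08-fold (log2 fold change 1.05, standard error 0.23, adjusted p = 0.00366, edgeR). Man1b1, the ER mannosidase whose cut marks glycoproteins that stay too long, had 18.5, 22.8 and 20.4 CPM in WT and 29.3, 30.5 and 27.8 CPM in S100a16KO+/- libraries (log2 fold change 0.51, standard error 0.08). Per transcript length, Uggt1 was at 0.107 to 0.131 times Ganab in WT and 0.181 to 0.199 times in S100a16KO+/- libraries.

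**Figure D2:**
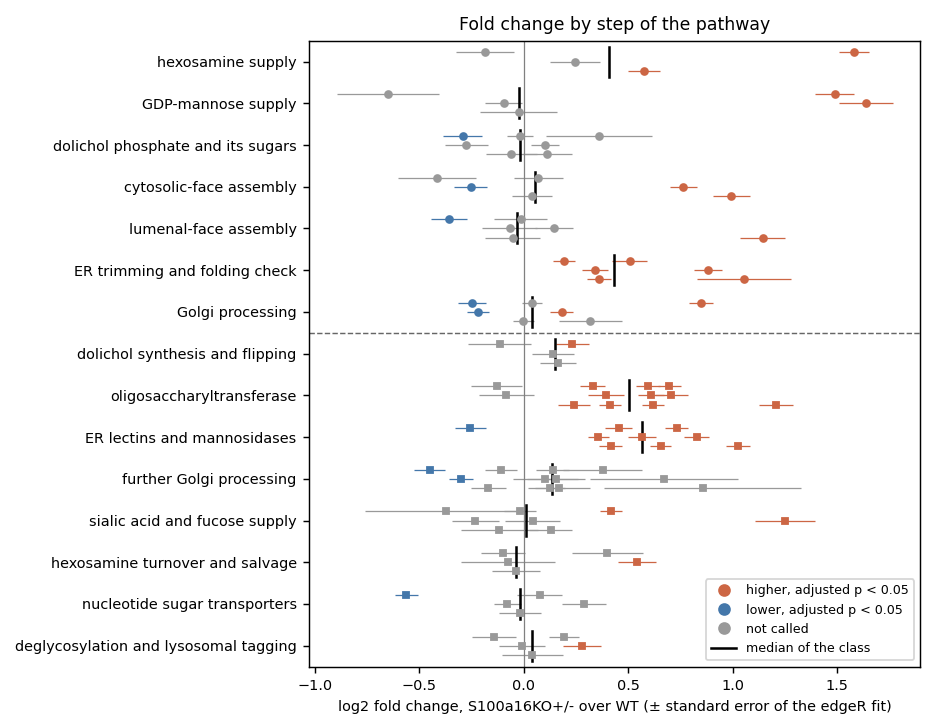
Log2 fold change, S100a16KO+/- minus WT, of each gene (points, x axis) by pathway step (y axis), with the 41 members above the dashed line as circles and the other pathway genes below it as squares, coloured by call, with bars for the standard error and a black line for the median of each class. The 6 genes of ER trimming all lie to the right of 0, while dolichol genes and further Golgi genes lie around it.

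In the Golgi, 2 of 7 genes were called higher and 2 lower, with a median of 0.04. Man2a1, the Golgi mannosidase that removes mannoses from the hybrid chain and the member with the highest WT level per length, had 234, 254 and 248 CPM in WT and 246, 245 and 243 CPM in S100a16KO+/- libraries. Its groups lay over each other, with a log2 fold change of -0.00 (standard error 0.05). Man1a, which trims mannoses before it, had a log2 fold change of 0.04 (standard error 0.05) and overlapping genotypes. Mgat1, which adds the GlcNAc of the first complex branch, had 48.4, 47.4 and 50.5 CPM in WT and 56.4, 55.1 and 54.3 CPM in S100a16KO+/- libraries. It was called higher (log2 fold change 0.18, standard error 0.06, adjusted p = 0.0295, edgeR), but lost the call without any 1 of WT replicates 1 and 2 and S100a16KO+/- replicates 1 and 3 (adjusted p = 0.0583 to 0.116, edgeR). Mgat2 (ENSMUSG00000043998, chromosome 12 from 69184157 to 69186770, plus strand) adds the GlcNAc of the next branch, which makes the chain complex. It had 33.6, 33.3 and 35.9 CPM in WT and 63.1, 62.0 and 59.9 CPM in S100a16KO+/- libraries. Mgat2 rose 1.80-fold (log2 fold change 0.85, standard error 0.06, adjusted p = 8.84e-08, edgeR), with libraries of a genotype close together. The FPKM ratio of Mgat2 to Mgat1 was 1.26, 1.27 and 1.29 in WT and 2.03, 2.04 and 2.00 in S100a16KO+/- libraries.

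The 2 Golgi members called lower were B4galt1 and St6gal1. B4galt1, which adds galactose, had 34.9, 40.1 and 37.2 CPM in WT and 31.5, 31.9 and 31.2 CPM in S100a16KO+/- libraries (log2 fold change -0.25, standard error 0.07, adjusted p = 0.014, edgeR). Its call was lost without WT replicate 2 (adjusted p = 0.0823) and without S100a16KO+/- replicate 3 (0.0514). St6gal1, which adds the outer sialic acid, had 65.2, 67.9 and 66.6 CPM in WT and 57.4, 56.1 and 57.8 CPM in S100a16KO+/- libraries. The genotypes did not overlap, and St6gal1 was called lower (log2 fold change -0.22, standard error 0.05, adjusted p = 0.00772, edgeR). Fut8, which adds the core fucose, was not called (0.32, standard error 0.15), with overlapping genotypes at 4.42 to 6.90 CPM.

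Several of these genes overlap other annotated genes, which limits how far their reads can be assigned. Of the 41, 20 overlap no other gene of the table, 16 overlap a gene of the other strand, and 5 overlap genes of the same strand (Dpm1, Alg14, Alg10b, Uggt1 and B4galt1). Gmppb, Dpagt1, Mgat2, Man2a1 and St6gal1 are among those with a gene on the other strand. The libraries were strand-specific, but whether the counting used strand is not given in the sources used here.

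Per transcript length, the WT levels of the 41 genes ran from 30.3 ± 2.60 FPKM (SD, n = 3) for Man2a1 to 0.102 ± 0.0304 FPKM for Uggt2. Ganab (26.5 FPKM), Prkcsh (20.9 FPKM), Man1a (19.2 FPKM) and Mpdu1 (15.6 FPKM) followed Man2a1, and only the first neighbours in this order, Man2a1 and Ganab, overlapped in their libraries. St6gal1, Mogs, Mgat2 and Gnpnat1, at 12.1 to 11.3 FPKM, each overlapped the next in their libraries. Pmm1, Alg13, Alg6, Fut8 and Uggt2 stayed under 1 FPKM in both genotypes. Gmppb went from 1.85 ± 0.418 to 5.78 ± 0.476 FPKM, from place 33 to place 19 in the order. Gfpt1 went from 1.11 ± 0.0679 to 3.34 ± 0.128 FPKM (place 36 to 30) and Gmppa from 3.92 ± 0.27 to 11.1 ± 0.73 FPKM (place 22 to 9). Mgat2 moved from 11.7 ± 0.773 to 21.2 ± 1.003 FPKM, place 8 to 4 (SD, n = 3 each).

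**Figure D3:**
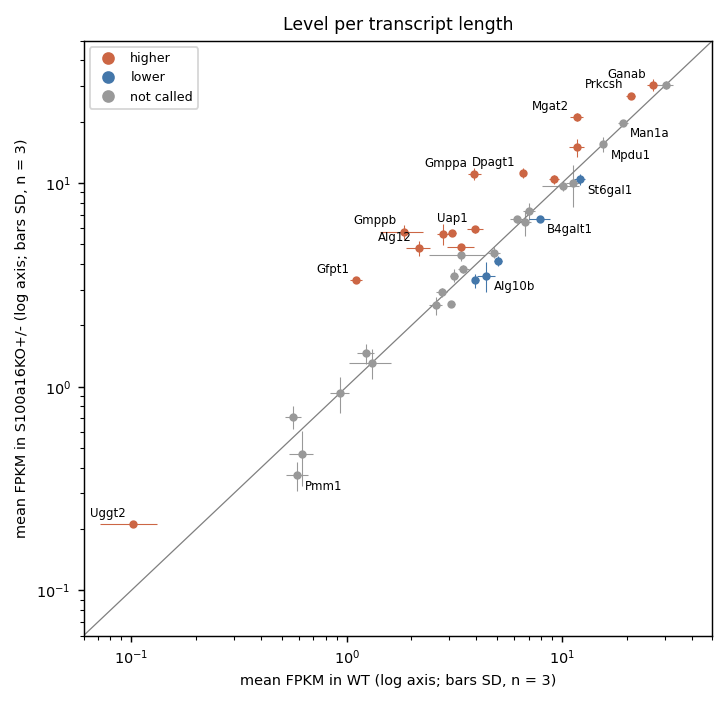
Mean FPKM of each of the 41 genes in WT (x axis) and S100a16KO+/- (y axis) hepatocytes, both on log axes, with bars for the SD over 3 libraries, colours for the call, and a diagonal line where levels are equal. Gfpt1, Gmppb and Gmppa lie farthest above the line, and the genes called lower lie close under it.

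The pairs of pathway genes whose ratios are given above were chosen after their values were seen and are a description. In all 8 pairs plotted, the 3 S100a16KO+/- ratios lay outside the range of the 3 WT ratios. The smallest shift was that of glucosidase II, whose ratio of Ganab to Prkcsh was 1.23, 1.24 and 1.33 in WT and 1.18, 1.05 and 1.16 in S100a16KO+/- libraries. The ratio of Dpagt1 to Alg14 went from 2.26 to 2.62 in WT to 3.59 to 4.07 in S100a16KO+/- libraries.

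**Figure D4:**
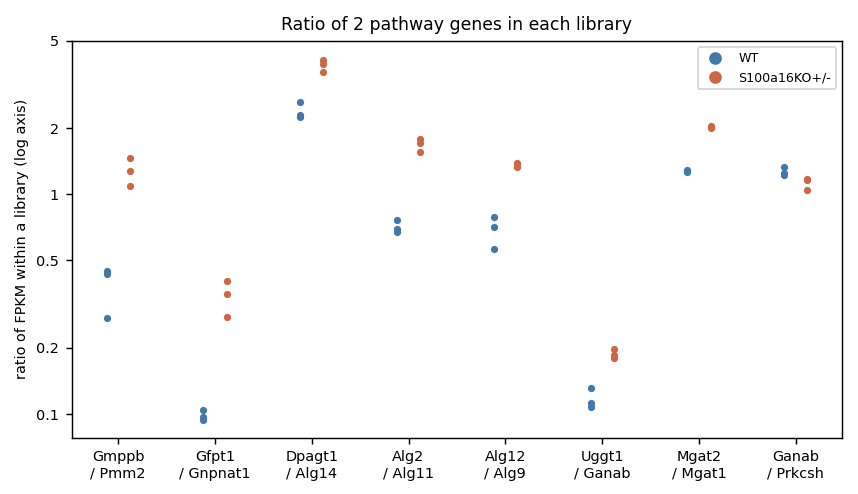
FPKM of a gene divided by the FPKM of its pathway partner in the same library (y axis, log), for 8 pairs (x axis), with 1 point for each library and colours for genotype. Mgat2 over Mgat1 sits at 1.26 to 1.29 in WT and at 2.00 to 2.04 in S100a16KO+/- libraries.

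Of 63 further genes of the same pathway, on a list also drawn up with earlier results of these data known, 60 passed the filter. Of those 60, 23 were called higher and 4 lower, with a median log2 fold change of 0.17. Of all genes tested, 11.6% were called higher and 11.2% lower, and these shares also stand beside each class below. A single call in a class of 4 or 5 genes says little beside them. Mgat3, B4galt2 and Gfpt2 did not pass the filter. The subunits of oligosaccharyltransferase, which moves the chain onto the protein, had 10 of 12 called higher (median 0.50). Of these, 9 had no overlap between genotypes, while Dad1 overlapped. Ostc rose most, with 23.2, 18.9 and 19.97 CPM in WT and 46.5, 51.5 and 45.5 CPM in S100a16KO+/- libraries (log2 fold change 1.21). Among ER lectins and mannosidases, 8 of 9 were called higher (median 0.57), with Edem2, a mannosidase of ER degradation, at 1.03, and 1 lower, the Golgi-resident endomannosidase gene Manea at -0.26, named after its value was seen. These steps lie beside the trimming genes described above, of which 6 of 6 were called higher. Further Golgi genes had 0 of 12 called higher and 2 lower (median 0.13), both sialyltransferases: St3gal3 at -0.45 and St3gal4 at -0.30, the latter named after its value was seen. Sialic acid and fucose supply had 2 of 8 called higher, led by Nans, sialic acid synthase, at 1.25. Hexosamine turnover had 1 of 5 called higher (Amdhd2 at 0.54), dolichol synthesis 1 of 4 (Nus1 at 0.23), and deglycosylation and lysosomal tagging 1 of 5 (Nagpa at 0.28). The call of Nus1 was near the limit (adjusted p = 0.0481, edgeR), and its genotypes overlapped. Among 5 nucleotide sugar transporters 1 was called lower, Slc35d1, with 146, 157 and 149 CPM in WT and 102, 106 and 98.9 CPM in S100a16KO+/- libraries (log2 fold change -0.56).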

How the data were processed

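Poly(A) RNA of 6 hepatocyte libraries was sequenced as pairs, with strand-specific libraries and UMIs (molecular identifiers) in the adapters. The deposited table gives, per gene and library, an estimated count and an FPKM. The estimated count was not scaled by the authors. In a library, 931 to 1011 genes had a count of 4, against 495 to 561 with 3 and 244 to 292 with 5. From this excess at 4, 1 fragment was put at about 4 counts. The FPKM was scaled by the authors for transcript length and library size. The submitters' processing notes name cutadapt 1.9, HISAT2 2.0.4, UMI-tools, StringTie 1.3.4d, DESeq2, edgeR and mm10, without their order. Counts have no interval of their own here, and 3 fragments (12 counts) are the limit of a count of 0, for counting error only.

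Genotypes were compared in R 4.3.3 with edgeR 4.0.16 on whole-number counts (TMM, filterByExpr, robust quasi-likelihood fit, no covariate, two-sided), with Benjamini-Hochberg adjustment over 15957 genes, and was tested on simulated data. Standard errors come from the F statistic. Each library was taken as a separate animal, as the study's methods give 3 per group. The labels do not say so, and p-values measure the spread between these libraries. The members and lists were chosen with earlier results of these data known. Members called or at 20 FPKM or more in a genotype are described in every library; of the other pathway genes the called gene with the largest change in each class is named. Promoters are those of RefSeq on GRCm38.p6. Positions are those of the table; 29 of 41 members had the same start and end in GENCODE M21. Alternatives were a replicate block, leaving out libraries, other filters and scalings, counts divided by 4, DESeq2 1.42.0, and limma 3.58.1 (voom on counts, trend on log2(FPKM + 1) and log2(FPKM + 0.1) at a mean FPKM of at least 1). Adding Gm20716 to Dpm1 was chosen after the data were seen.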

Additional observations from a re-analysis of the deposited data

How the results depend on the processing

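Over 18 alternatives, no called member changed direction. Of the 15 higher calls, 13 held in every alternative that tested them. Ganab lost its call in 4 and Mgat1 in 9. Of the 5 lower calls, Dolk and Alg11 were lost in 10 alternatives each, B4galt1 in 4, and Alg10b and St6gal1 in 2 each. The number of members called lower was 5 as reported, 3 with the replicate block, 3 with upper-quartile scaling, and 1 with limma-trend on log2(FPKM + 1) or log2(FPKM + 0.1). With libraries left out it was 2 (without WT replicate 2) to 5, and the number called higher 13 to 15. Over all genes tested, the settings with libraries left out called 1420 to 1664 higher and 1314 to 1748 lower. The median of the members was 0.10 as reported, 0.14 with upper-quartile scaling, and 0.06 (without WT replicate 2) to 0.14 with libraries left out. With limma-trend on log2(FPKM + 1), 3 members were higher by at least 2-fold at an unadjusted p under 0.05, against 5. That setting tested 36 members and 9054 genes, and called 1165 genes higher and 1063 lower (1157 and 1051 with log2(FPKM + 0.1)), against 1853 and 1790 as reported. Uggt2, with a mean of 0.102 FPKM in WT and 0.212 FPKM in S100a16KO+/- libraries, was not among those 36 members. Adding 1 to each FPKM also lowers every fold, most for genes at low levels. Any further cause of these differences was not tested. The replicate block called 14 members higher and 1566 and 1516 of all genes higher and lower. Of the other pathway genes, 23 were called higher and 4 lower as reported. With the replicate block these numbers were 21 and 3, and without WT replicate 3 they were 20 and 3. The deviations of same-numbered libraries from their genotype means had correlations of -0.05, -0.02 and 0.05, so libraries sharing a number were not treated as pairs. Depth limits Pmm1 and Uggt2 most, with 69 to 211 counts in a library, at about 4 counts for each fragment.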
